A study of Mus musculus with 9 samples.

Results

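The genes described here write or read DNA methylation and comprise the DNA methyltransferase genes Dnmt1, Dnmt3a and Dnmt3b, their catalytically inactive relative Dnmt3l, the hemimethylated-DNA readers Uhrf1 and Uhrf2, and the methyl-CpG reader family genes Mbd2, Mbd3 and Zbtb33 (Kaiso). They were chosen by name, as 9 of the 21938 protein-coding genes of GENCODE M21 on chromosomes 1 to 19, X and Y. Earlier results of these data were known when they, and the other gene groups below, were chosen. Every annotated transcript 5′ end of each of the 9 was read against the list of non-methylated islands (NMIs) of C127 cells. These cells are a mouse mammary epithelial line grown in serum-containing medium. The list came from 1 BioCAP library, in which genomic DNA is captured on the CXXC domain of KDM2B, a protein fold that binds CpG lacking methylation. The series, part of a study of how the SET1 histone methyltransferase complex is targeted to gene promoters, also holds 3 ATAC libraries, 3 libraries of RNA labelled with 4-thiouridine and 2 inputs, which were not analysed here. There were no replicates, and the list gave positions with no score or read depth, so that all counts below are descriptions without a test or an error.

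Methylation of CpG is copied after replication by DNMT1, which UHRF1 brings to hemimethylated sites, and is laid down anew by DNMT3A and DNMT3B, which DNMT3L stimulates in germ cells and embryonic cells. MBD2 binds methylated CpG and, like MBD3, is part of the NuRD repressor complex. MBD3 in mammals binds methylated CpG poorly, and ZBTB33 is a zinc-finger protein that binds methylated CpG or a sequence of its own. Several of these genes use alternative promoters: Dnmt1 has a somatic start and an upstream start used in oocytes, and Dnmt3a has a long form and a short form, DNMT3A2, which starts within the gene and is typical of embryonic stem cells and germ cells.

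A total of 8 of the 9 genes had an NMI at a transcription start site (TSS), against 47.5% of all protein-coding genes, and Dnmt3l was the gene without one. Each of the 8 had a single NMI at its TSSs, and no other gene started in any of them. The somatic promoter of Dnmt1 lay in an NMI and the oocyte promoter did not. The long promoter of Dnmt3a lay in an NMI and the short promoter did not. Both promoters of Uhrf1 that start coding transcripts shared 1 NMI, and the other NMIs covered the main promoter of Dnmt3b, Uhrf2, Mbd2, Mbd3 and Zbtb33.

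The reference sequence (mm10, from the RefSeq promoter table of the same assembly) is printed for the alternative promoters of Dnmt1 and Dnmt3a and for the upstream and middle promoters of Dnmt3l, because these carry the contrast between starts inside and outside the NMIs. Each stretch is 300 bp and runs from 250 bp before to 50 bp after the start, 5′ to 3′ on the strand of the gene, with CpG in capitals. The Dnmt1 windows are chr9:20952930-20953229 for the somatic and chr9:20959839-20960138 for the oocyte start, both on the minus strand. The Dnmt3a windows are chr12:3806910-3807209 for the long and chr12:3891494-3891793 for the short form, and the Dnmt3l windows are chr10:78042037-78042336 and chr10:78049592-78049891, all on the plus strand. The starts are those of Dnmt1-201, Dnmt1-202, Dnmt3a-218, Dnmt3a-203, Dnmt3l-205 and Dnmt3l-201.
Dnmt1 somatic: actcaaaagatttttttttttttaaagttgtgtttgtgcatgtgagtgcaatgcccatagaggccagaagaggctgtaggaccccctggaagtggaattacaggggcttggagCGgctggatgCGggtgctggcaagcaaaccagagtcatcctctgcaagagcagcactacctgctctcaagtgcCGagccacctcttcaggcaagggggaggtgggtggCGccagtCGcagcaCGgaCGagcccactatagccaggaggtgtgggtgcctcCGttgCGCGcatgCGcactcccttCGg
Dnmt1 oocyte: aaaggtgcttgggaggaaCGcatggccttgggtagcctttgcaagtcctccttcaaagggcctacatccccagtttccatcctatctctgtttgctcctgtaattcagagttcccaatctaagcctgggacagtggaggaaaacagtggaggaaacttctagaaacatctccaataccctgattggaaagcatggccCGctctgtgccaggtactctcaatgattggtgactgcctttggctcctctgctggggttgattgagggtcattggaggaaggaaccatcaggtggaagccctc
Dnmt3a long: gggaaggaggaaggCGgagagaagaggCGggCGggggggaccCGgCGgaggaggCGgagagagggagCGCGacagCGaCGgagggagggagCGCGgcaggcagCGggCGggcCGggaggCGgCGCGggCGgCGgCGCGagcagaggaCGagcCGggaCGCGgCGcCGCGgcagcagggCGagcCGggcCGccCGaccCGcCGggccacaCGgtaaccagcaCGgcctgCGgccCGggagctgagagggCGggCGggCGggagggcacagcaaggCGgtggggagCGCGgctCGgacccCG
Dnmt3a short: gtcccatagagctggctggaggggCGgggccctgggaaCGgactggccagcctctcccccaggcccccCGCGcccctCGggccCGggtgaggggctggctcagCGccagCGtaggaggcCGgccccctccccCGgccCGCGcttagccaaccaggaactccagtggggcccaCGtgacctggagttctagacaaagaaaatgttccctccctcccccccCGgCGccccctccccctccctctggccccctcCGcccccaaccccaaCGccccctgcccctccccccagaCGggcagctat
Dnmt3l upstream: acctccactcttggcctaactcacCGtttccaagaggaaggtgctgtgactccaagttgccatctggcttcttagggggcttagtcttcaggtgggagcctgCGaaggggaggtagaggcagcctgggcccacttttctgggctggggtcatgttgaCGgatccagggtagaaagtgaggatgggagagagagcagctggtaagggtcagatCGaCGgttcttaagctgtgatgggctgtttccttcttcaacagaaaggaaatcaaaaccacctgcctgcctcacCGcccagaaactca
Dnmt3l middle: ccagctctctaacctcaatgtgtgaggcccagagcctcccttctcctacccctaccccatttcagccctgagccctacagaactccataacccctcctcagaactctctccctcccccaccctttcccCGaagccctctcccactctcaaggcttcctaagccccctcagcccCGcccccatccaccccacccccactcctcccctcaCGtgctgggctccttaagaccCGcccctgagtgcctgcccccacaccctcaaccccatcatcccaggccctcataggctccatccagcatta

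The Dnmt3a long window held 47 CpG, all of them in the NMI, and the short window held 18, none of them in an NMI. The Dnmt1 somatic window held 12 CpG and the NMI took in 211 bp of it with all 12. By contrast, the oocyte window held 2 CpG. The Dnmt3l windows held 6 and 4 CpG.

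Of the 75 annotated transcripts of the 9 genes, 36 started in an NMI, 10 of them Dnmt3b transcripts from 4 TSSs. No share over all transcripts is given beside this count. The 75 transcripts had 64 distinct TSSs, of which 27 (42.2%) lay in an NMI, near the background of 38.4% of the TSSs of protein-coding genes. Where TSSs of a gene no more than 500 bp apart were merged, there were 39 promoters, 10 of them in an NMI (background 22.4%). The promoters outside were mostly starts of minor models. Of the 15 promoters that start a transcript of the GENCODE basic set, 9 lay in an NMI (background 38%), and of the 24 that do not, 1 did (background 4.03%). When only the outermost TSS of each gene was read, 6 of the 9 genes had an NMI (background 42.5%): Dnmt1 was then read at its oocyte start and Dnmt3a at Dnmt3a-212, a retained-intron transcript that starts 226 bp outside the NMI of the long promoter.

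**Figure D1:**
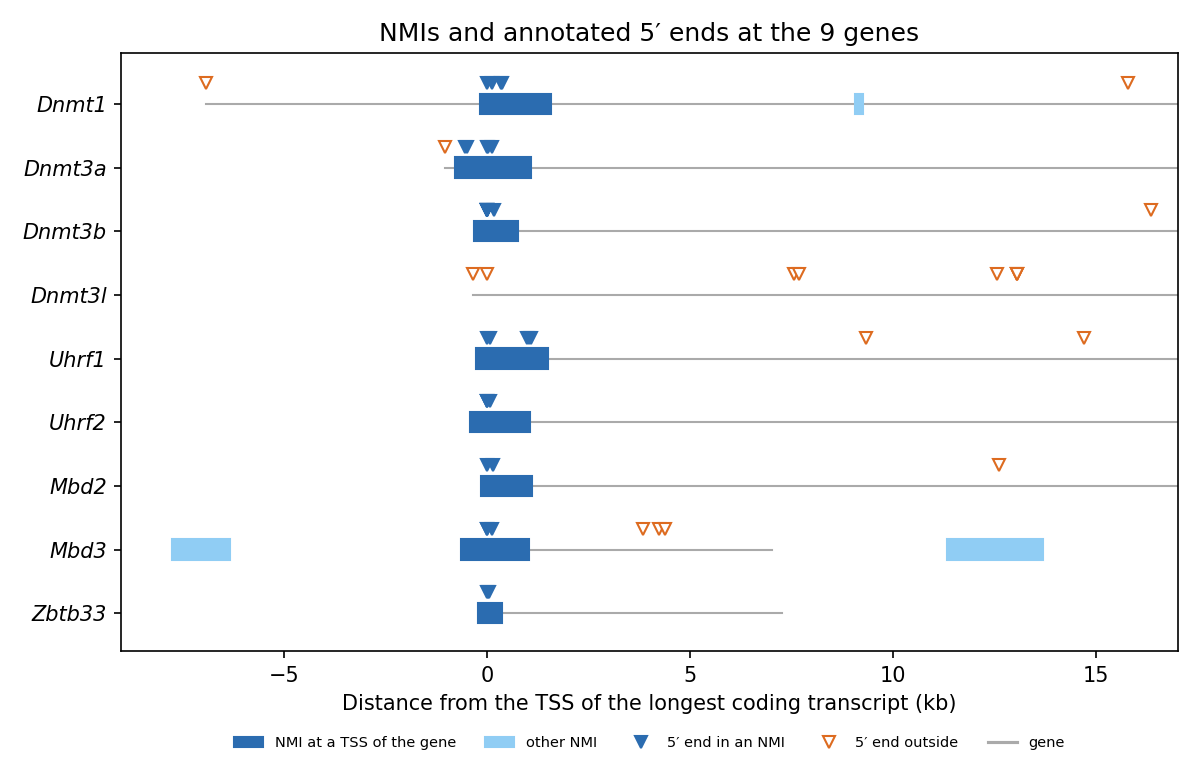
NMIs and annotated 5′ ends at the 9 genes, drawn by distance in kb from the TSS of the longest coding transcript, in the direction of transcription. Dark bars are NMIs at a TSS of the gene, light bars are other NMIs, filled triangles are 5′ ends in an NMI and open triangles are 5′ ends outside; genes that run past the right edge are cut there. A dark bar lies over the main start of every gene except Dnmt3l, and the oocyte start of Dnmt1 stands 6909 bp upstream with no bar.

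Dnmt1, which encodes the maintenance methyltransferase, lies on the minus strand of chromosome 9 (20907209 to 20959888). Its NMI (20951411 to 20953140) was 1730 bp wide and held all 4 TSSs of the promoter taken as somatic. These start Dnmt1-201, with 1620 codons, Dnmt1-203 and Dnmt1-207, with 1501 and 1502 codons, and the non-coding Dnmt1-205. The NMI took in 161 bp upstream and 1568 bp downstream of the somatic TSS, and with it the start codon of Dnmt1-201. The oocyte transcript, Dnmt1-202, starts 6909 bp upstream, at 20959888, and this TSS lay 6748 bp from the NMI. The annotation does not name it as the oocyte form, and it was taken as such from its upstream start. Its 1501 codons are fewer than the 1620 of Dnmt1-201 and equal to those of Dnmt1-203, which starts at the somatic promoter. Within 500 bp of the oocyte TSS there were 4 CpG, or 0.4 per 100 bp, against 4.95 per 100 bp around the somatic promoter. Of the 15747 promoters of protein-coding genes with under 1 CpG per 100 bp, 1 lay in an NMI (0.00635%). Among the 7 members with several promoters and an NMI, Dnmt1 was the 1 gene whose outermost promoter lay outside every NMI (background 11.7%), and 0 of the 7 had every promoter in an NMI (background 3.61%). The retained-intron transcripts Dnmt1-206 and Dnmt1-204, with starts inside the gene, were also outside, with 1.2 and 2.9 CpG per 100 bp.

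A second, narrow NMI lay inside Dnmt1, in the first intron of Dnmt1-201, 9055 bp downstream of the somatic TSS. It was 215 bp wide (chr9:20943710-20943924), touched no exon and no TSS, and held 7 CpG, or 3.26 per 100 bp, at a GC content of 57.2% and with no repeat bases. Another NMI without any TSS within the gene was present at 5.88% of the protein-coding genes with an NMI at a TSS. Its sequence is shown on the minus strand, with CpG in capitals, since it is the only NMI within a member that touched no promoter.
Dnmt1 intronic NMI: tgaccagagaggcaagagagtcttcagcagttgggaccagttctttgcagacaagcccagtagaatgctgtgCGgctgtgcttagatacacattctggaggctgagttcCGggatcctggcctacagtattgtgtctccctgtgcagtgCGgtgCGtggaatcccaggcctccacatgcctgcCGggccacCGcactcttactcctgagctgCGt

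Dnmt3a, one of the de novo methyltransferase genes, lies on the plus strand of chromosome 12 (3806007 to 3914443) and had 18 TSSs in 12 promoters, the most of any member. Its NMI (3806233 to 3808116) was 1884 bp wide, the widest at a member, and held 5 of the TSSs. The long promoter (TSSs 3807030 to 3807160) starts Dnmt3a-201 and Dnmt3a-218, both with 908 codons, and Dnmt3a-204. A further group of starts upstream, at 3806007 to 3806527, included Dnmt3a-202 and Dnmt3a-206 in the same NMI. The short form starts 84698 bp downstream of the main TSS, from Dnmt3a-205 (3891728) and Dnmt3a-203 (3891744), both with 689 codons, which were taken as the short form from their position and coding length. No NMI lay closer to the short promoter than 83612 bp, which was the end of the NMI at the long one.

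The short Dnmt3a promoter was the exception in CpG density among the promoters outside the NMIs. It had 51 CpG, or 5.01 per 100 bp, a GC content of 62.7% and an observed/expected CpG ratio of 0.515, while the other 28 of the 29 promoters outside had under 3 CpG per 100 bp. Of all promoters with 5 to 6 CpG per 100 bp, 1986 of 2704 (73.4%) lay in an NMI. For those that start a basic transcript the share was 75.5% (1833 of 2427). Of these, where the promoter stood over 10 kb from an outermost promoter that itself lay in an NMI, 23 of 33 did (69.7%), a comparison chosen after the values were seen. Predicted CpG islands were made by joining overlapping windows of 500 bp. Each window had to reach 55% GC and an observed/expected CpG ratio of 0.65, so that the ratio of a joined stretch can be lower. One such island ended just before the short TSSs (3890989 to 3891639, 651 bp, 5.84 CpG per 100 bp), and no base of it was in an NMI. The other 9 internal promoters of Dnmt3a, none of which starts a basic transcript, had 0.4 to 2.7 CpG per 100 bp and were all outside.

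**Figure D2:**
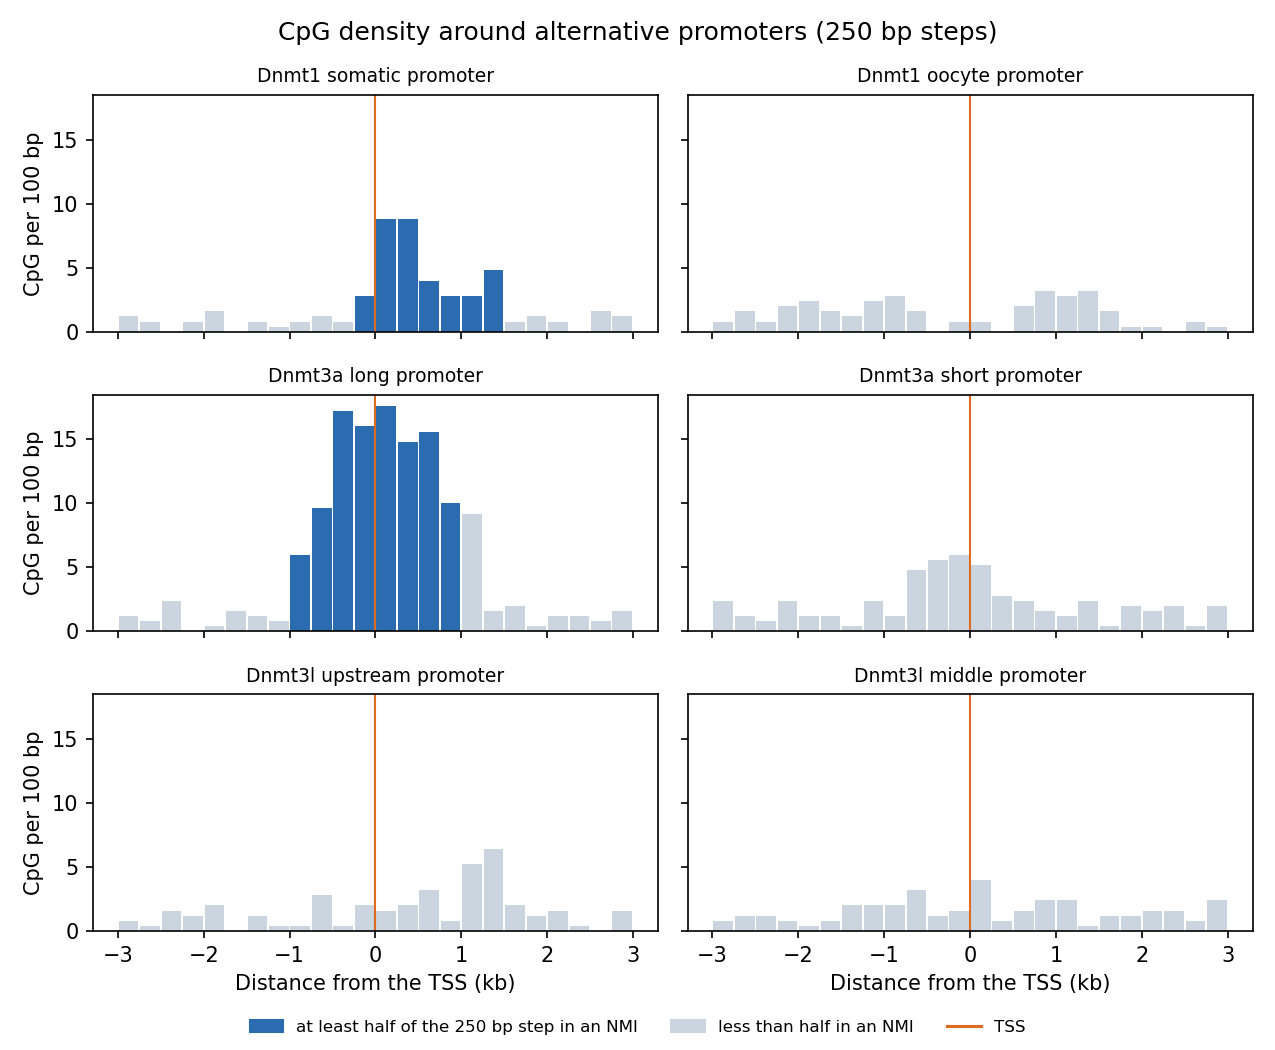
CpG per 100 bp of the reference in steps of 250 bp, by distance in kb from the TSS, around 6 alternative promoters. Dark bars are steps with at least 50% of their bases in an NMI, pale bars the others, and the line is the TSS. The Dnmt3a long promoter stands in a block of dark bars reaching above 15, the short promoter in a lower, pale rise, and the Dnmt1 oocyte and Dnmt3l promoters in pale bars throughout.

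Dnmt3b, the other de novo methyltransferase gene (chromosome 2, 153649450 to 153687730, plus strand), started all 10 of its coding transcripts, of 776 to 860 codons, from 1 promoter in an NMI of 1089 bp (153649128 to 153650216). The promoter had 9.16 CpG per 100 bp. The starts of 2 retained-intron transcripts lay outside, 15586 and 19154 bp from the NMI.

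Dnmt3l (chromosome 10, 78041947 to 78063622, plus strand) had 6 TSSs in 3 promoters, none in an NMI. Transcripts of 421 codons start at the upstream promoter (Dnmt3l-205) and at the middle promoter (Dnmt3l-201 and Dnmt3l-208). The downstream promoter starts transcripts of 126 codons. The 3 promoters had 1.72, 1.88 and 1.4 CpG per 100 bp. Of all promoters with 1 to 2 CpG per 100 bp, 90 of 14918 lay in an NMI (0.603%). The nearest NMI ended 22843 bp before the gene (78018755 to 78019104, 350 bp, with no gene start), and the next began 105158 bp after it, at D10Jhu81e. The stretch of 149675 bp between them, free of NMIs, held 3 protein-coding genes whole: Aire, Dnmt3l and Icosl. A predicted CpG island inside Dnmt3l, with no TSS (78043261 to 78043963, 703 bp, 4.84 CpG per 100 bp, ratio 0.58 over the joined stretch), was not in an NMI.

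Uhrf1 (chromosome 17, 56303321 to 56323486, plus strand) has promoters 992 bp apart, each of which starts transcripts of 774 and 782 codons. Both lay in 1 NMI of 1760 bp (56303054 to 56304813), although the upstream one, with 4.63 CpG per 100 bp, was the poorest in CpG of the 10 member promoters in an NMI. The downstream one had 7.31 CpG per 100 bp. The internal starts of Uhrf1-205 and Uhrf1-206 were outside. The NMI of Kdm4b, a histone demethylase gene, began 1880 bp beyond the end of Uhrf1 and was 1896 bp wide.

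Uhrf2, a paralog of Uhrf1 (chromosome 19, 30030513 to 30093722, plus strand), had an NMI of 1468 bp (30030105 to 30031572) over the promoter of its transcript of 803 codons, with 12.1 CpG per 100 bp. Its 5 internal promoters, none of which starts a coding transcript, had 0.599 to 1.8 CpG per 100 bp and were outside.

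Among the reader genes, Mbd2 (chromosome 18, 70568189 to 70626131, plus strand) had an NMI of 1255 bp (70568031 to 70569285) over the promoter of its transcripts of 414 and 249 codons, and its 3 internal promoters were outside. Mbd3 (chromosome 10, 80392539 to 80399550, minus strand) had an NMI of 1661 bp (80398523 to 80400183) over the promoter of its transcripts of 285, 281 and 253 codons, which had 11.1 CpG per 100 bp. A downstream Mbd3 promoter (80395170 to 80395719) starts Mbd3-202, of 261 codons, and lay 2804 bp from that NMI, with 2.77 CpG per 100 bp over its whole span. A predicted CpG island overlapped it (80395086 to 80395638, 553 bp, 5.97 CpG per 100 bp, ratio 0.642 over the joined stretch) and was not in an NMI. The NMIs of the neighbouring genes Uqcr11 (1423 bp wide) and Mex3d (2366 bp wide) began 6332 bp upstream and 4310 bp downstream of Mbd3. Zbtb33 (chromosome X, 38189793 to 38197046, plus strand) had all 3 TSSs, including those of the transcripts of 671 codons, in an NMI of 601 bp (38189568 to 38190168), the narrowest at a member. Of the 948 protein-coding genes on X, 27.1% had an NMI at a TSS.

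The 8 NMIs had a median width of 1564 bp and a median of 9.87 CpG per 100 bp. Over the 9581 NMIs with a protein-coding TSS the medians were 1173 bp and 6.89 CpG per 100 bp, and 6 of the 8 were above each of them. The NMI at Dnmt1 was the poorest of the 8 in CpG, with 5.09 per 100 bp, at percentile 15.6 of these NMIs, while its width was at percentile 82.4. The NMI at Dnmt3a had 14.1 CpG per 100 bp and a GC content of 79.6%, at percentile 99.9 of CpG density and 87.1 of width. Zbtb33 showed the opposite order to Dnmt1, at percentile 6.99 of width and 92 of CpG density. In the 500 bp beyond each edge, CpG density was 0.4 to 5.6 per 100 bp. The 5.6 stood downstream of the Dnmt3a NMI, where the predicted island ran on.

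All 8 NMIs reached further downstream than upstream of the main TSS. Their median extents were 296 bp upstream and 1072 bp downstream, against 372 and 739 bp over the 7333 NMIs that held the main TSS of 1 protein-coding gene, of which 83% were longer downstream. The difference in bp was largest at Dnmt1, with 1568 bp downstream and 161 bp upstream, and smallest at Zbtb33, with 375 and 225 bp. The NMI held the start codon at Dnmt1, Uhrf2, Mbd2 and Mbd3 (4 of 8), against 68.9% of 7313 NMIs at the main TSS of 1 protein-coding gene with a complete start. At Dnmt3a, Dnmt3b, Uhrf1 and Zbtb33 it held exonic and intronic bases but 0 bp of coding sequence of the main transcript.

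**Figure D3:**
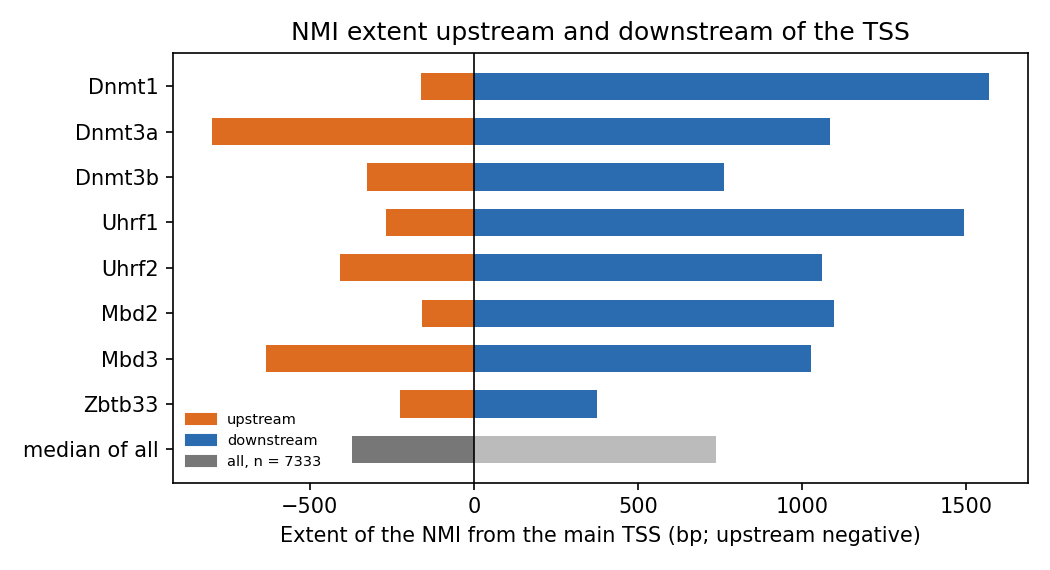
Extent in bp of each NMI upstream (negative) and downstream of the main TSS, with the medians over 7333 NMIs at the main TSS of 1 protein-coding gene in grey. The downstream bar is the longer for all 8 genes, from 375 bp at Zbtb33 to 1568 bp at Dnmt1.

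CpG density around the start separated the member promoters in an NMI from those outside, with an overlap made by 1 promoter. Because BioCAP captures DNA through CpG lacking methylation, CpG density and presence in the list are not independent. The 10 promoters in an NMI had a median of 8.23 CpG per 100 bp (range 4.63 to 15.6) and the 29 outside a median of 1.4 (range 0.4 to 5.01), against 6.45 over all 11759 promoters in an NMI and 1.3 over the 40787 outside. The Dnmt3a short promoter, at 5.01, had a higher density than the Dnmt1 somatic promoter, at 4.95, and the upstream Uhrf1 promoter, at 4.63. Both of the latter lay in an NMI. The spans behind these values lengthen with the distance between merged TSSs. In steps of 250 bp the highest density was 6 at Dnmt3a-203 and 8.8 at Dnmt1-201. By the observed/expected CpG ratio the order was reversed, at 0.515, 0.54 and 0.546. By this ratio every member promoter in an NMI stood at 0.54 or above and every one outside at 0.515 or below. Over all promoters, the share in an NMI rose from 0.603% at 1 to 2 CpG per 100 bp to 36.5% at 3 to 4 and 80.8% at 8 or more.

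**Figure D4:**
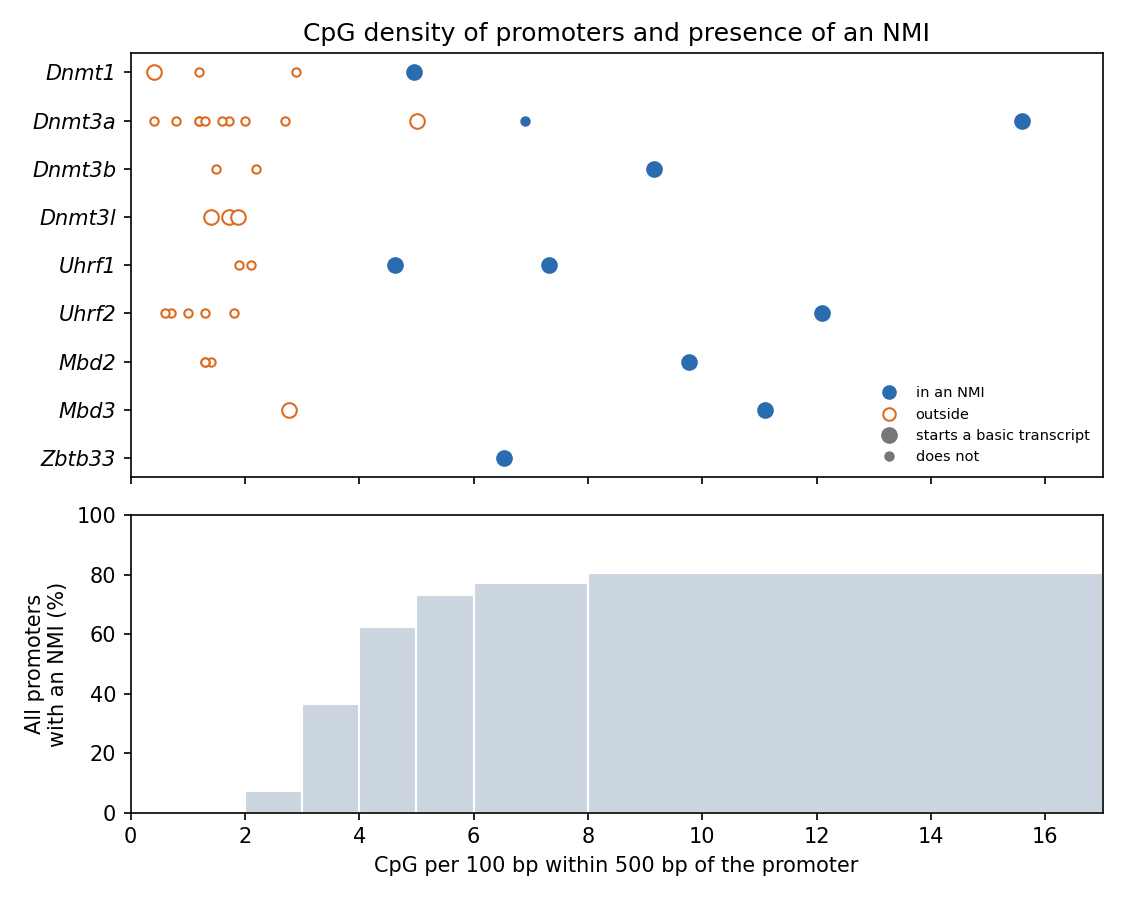
Above, CpG per 100 bp within 500 bp of each of the 39 member promoters; filled points are in an NMI, open points outside, and large points start a basic transcript. Below, the percentage of all promoters of protein-coding genes in an NMI, by the same CpG density. The open large point at 5.01 for Dnmt3a stands to the right of filled points of Dnmt1 and Uhrf1.

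Of 12 CpG islands predicted in the members or within 2 kb of them, 9 were overlapped by an NMI, with 54.7% (Zbtb33) to 98.5% (Kdm4b, next to Uhrf1) of their bases covered. Those not overlapped were the islands at the Dnmt3a short promoter, inside Dnmt3l and at the downstream Mbd3 promoter. Of these, only the last held a TSS.

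The windows from 250 bp before to 50 bp after the start were also searched on both strands for 8 short motifs. The Dnmt1 oocyte window held 5 CCAAT boxes (CCAAT) and no GC box (GGGCGG), and the somatic window held none of the 8 motifs. CCAAT boxes also occurred at the upstream (3) and downstream (2) Uhrf1 promoters and at Mbd3 (3). The background for the motifs was 1 window per protein-coding gene, at its main TSS. The alternative starts among the member windows are therefore not in it. A CCAAT box was present in 38.6% of these 21938 background windows, and 5 or more in 0.283%. The Dnmt3a long window held 7 GC boxes. Other windows held GC boxes too: Dnmt3b (4), Uhrf2 (3), the downstream (3) and upstream (1) Uhrf1 promoters, Mbd3 (2), Mbd2 (1) and the Dnmt3l upstream promoter (1). A GC box was present in 45% of the background windows and 7 or more in 0.939%. The cutoffs of 5 and 7 are the highest counts seen in the member windows, so these shares are not a test. The Dnmt3a short window and the Dnmt3l middle window, both outside the NMIs, held 2 GC boxes and 1 E box (CACGTG, 7.69%) each. The motif of ZBTB33 itself (TCCTGCNA, 4.71%) occurred once in the Mbd3 window, as did a TATA box (TATAAA, 12.7%). An E2F motif (TTCCCGC, 6.11%) occurred once at the upstream Uhrf1 promoter, and an ETS motif (CCGGAAG, 11.1%) once each at Mbd2 and Zbtb33. The cyclic AMP element (TGACGTCA, 2.4%) was in none of the member windows searched. None of the 8 motifs contains another, and these are matches of letters, not bound sites.

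In a wider list of 34 genes of DNA methylation and of partner proteins, 27 had an NMI at a TSS. The share over all protein-coding genes was 47.5%, and it is the background for each group count below. Maintenance partners all had one (4 of 4), which was 2083 bp wide at Usp7, a deubiquitinase gene, 1589 bp at Cdca7, 1437 bp at Pcna, the replication clamp gene, and 1147 bp at the remodeller gene Hells. Of the demethylation genes, Tet2 (1913 bp), Tet3 (1769 bp) and Tdg (972 bp) had an NMI and Tet1 did not, its nearest TSS being 11079 bp away from one. Of the other readers, 8 of 9 had one, among them Mbd5 (2461 bp), Mbd4 (1201 bp) and Mbd6 (1019 bp), and Zbtb38 lay 87579 bp from the nearest. Of the NuRD partners, 10 of 11 had one, with Chd4 (2007 bp), Gatad2a (1706 bp), Rbbp4 (1671 bp) and Gatad2b (1670 bp) the widest. The exception, Chd3, had an NMI whose edge lay 6 bp from a TSS. Ncor1, a corepressor partner of ZBTB33, had an NMI of 2490 bp, and Ctnnd1, the gene of its p120 catenin partner, had none, its nearest NMI lying 330 bp from a TSS. Trdmt1, a relative of Dnmt1 that methylates transfer RNA, had one of 742 bp. The paralogs typical of germ cells had none (0 of 3): Dnmt3c lay 44169 bp, Mbd3l2 137299 bp and Mbd3l1 185004 bp from the nearest NMI.

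**Figure D5:**
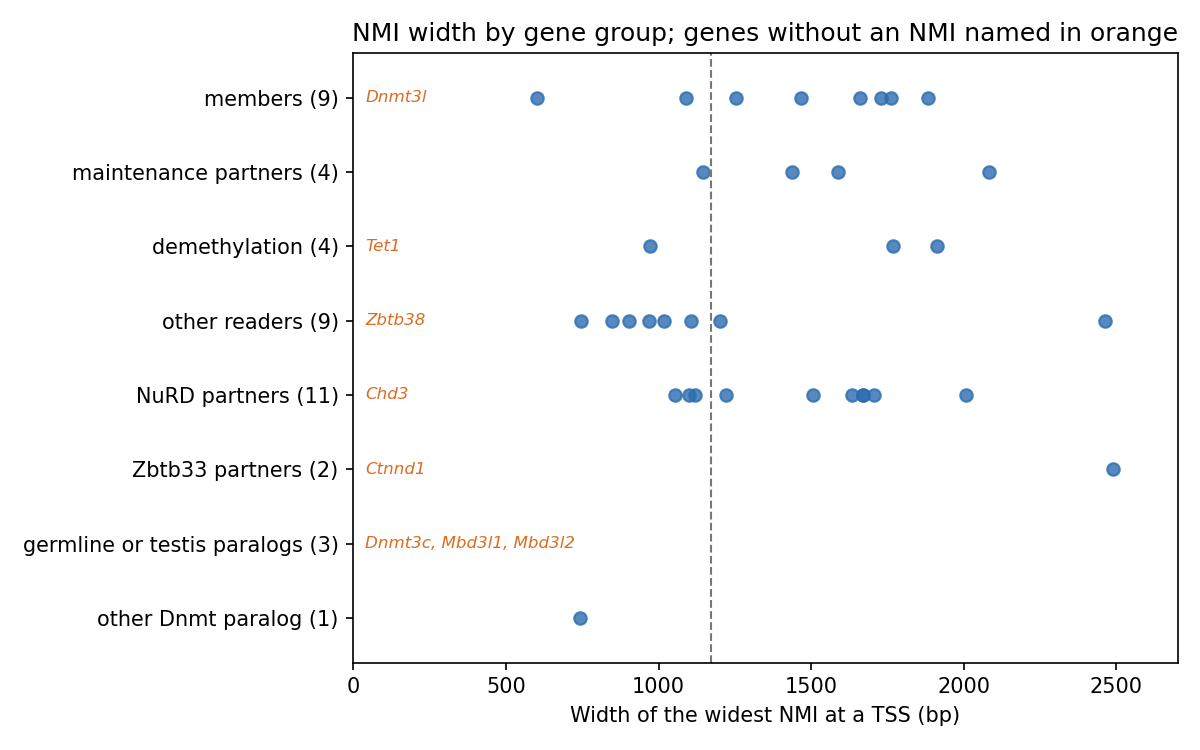
Width in bp of the widest NMI at a TSS for each gene of the members and of the wider list, by group, with the number of genes in the group in brackets; genes without an NMI are named in orange. The dashed line is the median width of 1173 bp over NMIs with a protein-coding TSS, and 6 of the 8 members with an NMI lie to its right.

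Marker genes of cell types were also read, against 47.5% of all protein-coding genes with an NMI at a TSS. The 6 epithelial marker genes Epcam, Cdh1, Krt5, Krt8, Krt14 and Krt18 had no NMI at a TSS (0 of 6). Of 6 mesenchymal marker genes, Vim, Cdh2, Zeb2 and Col1a1 had one and Pdgfrb and Acta2 did not (4 of 6). The list holds DNA positions, so this is not a measure of expression and cannot check the epithelial label. That label was not checked by RNA. A gene without an NMI here is absent from this list, and its methylation was not measured.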

How the data were processed

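Positions deposited by the authors (chromosome, start and end of each NMI, with no score) were used as they stand, with starts counted from 1. Before deposit, the authors mapped the reads to mm10 with Bowtie2, kept those with a single best position, took out duplicates (SAMtools) and ran MACS, listed as MACS2 in the submitters' processing notes. No version is given in the sources read for this work, nor whether the input was the control. Weakly captured islands and those in repeated sequence can be missing from such a list.

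The list held 13491 NMIs with a median width of 990 bp (range 114 to 11019). TSSs, coding lengths and the basic tag came from GENCODE M21. A TSS was in an NMI when its base was. The main TSS was that of the transcript with the longest coding sequence, and the outermost TSS the most upstream. Percentiles and medians of NMIs refer to NMIs with a protein-coding TSS. CpG counts came from the reference within 500 bp of each promoter, and lower-case reference bases were taken as repeats. RefSeq listed 15 promoters for 8 of the 9 genes, and not all of them lay at a GENCODE TSS. Those that did were 2 of 3 at Dnmt3a, 1 of 2 at Uhrf1, 0 of 1 at Dnmt3b and 0 of 1 at Mbd3, and all at the other genes listed. The genes named were the 9 members and, from the wider list, every gene without an NMI and up to 4 per group with the widest. A gene that this rule takes in is not reported here. Members and lists were chosen with earlier results of these data known. Scripts ran in Python 3.11.15 with pandas 2.3.3 and matplotlib 3.10.9 and were tested on simulated data.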

Additional observations from a re-analysis of the deposited data

How the results depend on the processing

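Of 39 alternatives over 7 results, 34 left the value within the limits set and 5 moved it. The results are counts and medians, which have no direction that could reverse. For counts the limit was a ratio of 1.5 between numbers in an NMI, not shares, so 8 and 6 genes passed as the same. With basic transcripts only, TSSs in an NMI went from 27 of 64 (42.2%) to 20 of 28 (71.4%). Promoters in an NMI went from 10 of 39 (25.6%) to 9 of 15 (60%), while their background went from 22.4% to 38%. With TSSs merged at 250 and 1000 bp, promoters in an NMI were 10 of 43 (23.3%) and 8 of 36 (22.2%), near the background of 22.4% at 500 bp. With protein-coding transcripts only, TSSs and promoters in an NMI were 24 of 40 (60%) and 10 of 23 (43.5%). No matching background is given for these shares or for basic TSSs. With the outermost TSS only, 6 of 9 genes had an NMI in place of 8, and 22 of 34 genes of the wider list in place of 27 (background 42.5%). The median CpG density of member promoters in an NMI, 8.23 per 100 bp, was 9.39 and 9.47 with TSSs merged at 250 and 1000 bp and 10.1 within 250 bp of the promoter. That of promoters outside, 1.4, was 1.5 with merging at 250 bp and 1.6 within 250 bp. The cause was not tested. Leaving out transcripts with a start not found was chosen after seeing the data and kept 27 TSSs in an NMI of 58. No paired analysis was possible because the results come from 1 library and from no test, and no replicate could be left out. Without a score or reads, neither a stricter threshold nor an interval for any NMI edge could be computed.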
